A study of Mus musculus with 3 samples.

Results

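The interleukin-1 (IL-1) family was followed as 9 genes, the cytokine genes Il1a, Il1b, Il1rn, Il33 and Il18 and the receptor genes Il1r1, Il1r2, Il1rap and Il1rl1. They were picked by symbol from the 32285 genes of each matrix, and each of the 9 had at least 1 transcript in the kept cells of every library. The data are single-cell RNA counts of mouse tumour tissue in 3 libraries, 1 per group. All tumours grew from LLC1-sgLkb1, Lewis lung carcinoma cells listed as an LKB1 knockdown, so tumour cells of all groups share that change. By the design text these cells were injected into a tail vein to seed the lung, and were placed under the skin 3 weeks later as the side to be irradiated. Flox+ICI came from an Sfrp2fl/fl host given an immune checkpoint inhibitor (ICI) only, and Flox+RI from an Sfrp2fl/fl host given radiation and ICI (RI). The CKO+RI-labelled library was made after radiation and ICI, and its title corresponds to the Sfrp2ΔCol1a2 host of the design, in which Sfrp2 is deleted in cells that use the Col1a2 promoter. The labels name neither the sampled lesion, the number of mice behind a library, nor their age. Counts of the targeted gene did not back the label and could not decide it. All kept cells held 6 Sfrp2 transcripts in Flox+ICI, 3 in Flox+RI and 46 for the CKO+RI-labelled library, not scaled for depth. Fibroblasts held 2, 1 and 5 of them (213, 30 and 135 cells), too few to judge a deletion limited to cells that use the Col1a2 promoter.

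IL-1α (Il1a) and IL-1β (Il1b) are inflammatory cytokines that act through the receptor Il1r1 together with the shared partner chain Il1rap. IL-1β is made mostly by myeloid cells. Il1rn encodes the receptor antagonist, which occupies Il1r1 without signalling, and Il1r2 encodes a decoy receptor that binds IL-1 without signalling. IL-33 is a nuclear alarmin of barrier cells, and in the mouse lung alveolar type 2 cells are a known source. Its receptor ST2 is encoded by Il1rl1, also pairs with Il1rap, and is known from regulatory T cells, group 2 innate lymphoid cells and mast cells. IL-18, like IL-1β, can be activated through cleavage by caspase-1, and it is held back by the binding protein encoded by Il18bp.

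Levels are given as unique transcript counts (UMIs) of a gene per 1000000 UMIs of all genes, summed over the cells of a class in a library (CPM). Cells were assigned to classes by marker genes that hold none of the 9 genes. Each range in brackets is an exact 95% interval that covers counting error only. With 1 library per group nothing has a replicate check, no p-value was made, and a difference cannot be told apart from a difference between mice, lesions or preparations. A difference was called where 2 levels were at least 2-fold apart, the interval of their ratio left out 1, and the 2 libraries held at least 20 UMIs of the gene together.

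After filtering, 9777, 11706 and 8383 cells remained in Flox+ICI, Flox+RI and the CKO+RI-labelled library, with medians of 3018, 2576.5 and 13406 UMIs per cell. The matrices shared 31 to 37 cell barcodes per pair of libraries. Tumour-gated cells numbered 2823, 3828 and 4209, in the same order. Of the 18 tumour markers, 15, 14 and 15 stood higher in them than in the other cells, and H19 (in Flox+ICI and the CKO+RI-labelled library) or Cdkn2a (in Flox+RI) was at 0. In neutrophils, macrophages, alveolar macrophages, classical monocytes, endothelial cells, fibroblasts and alveolar type 2 cells, every listed marker stood higher inside the class than outside; some of these markers set the gates, and the other classes were not checked this way. Flox+RI stood apart in its myeloid cells, of which many fell in clusters 13 and 14. Cluster 13 held 1306 cells (89.7% from Flox+RI) and cluster 14 held 2407 (98.7% from Flox+RI).

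The receptor genes Il1r2, Il1r1 and Il1rl1 lie next to each other on chromosome 1 (GRCm38, plus strand, GENCODE M21). Il1r2 spans chr1:40074079-40125231, Il1r1 chr1:40225080-40317257 and Il1rl1 chr1:40429570-40465415, with gaps of 99.8 and 112.3 kb. Il1a (chr2:129299610-129309972) and Il1b (chr2:129364570-129371139) share the minus strand of chromosome 2, 54.6 kb apart, and Il1rn lies on the same chromosome at chr2:24336853-24351494 on the plus strand. Il18 (chr9:50554827-50581840), Il1rap (chr16:26581704-26730117) and Il33 (chr19:29925114-29960718) are on the plus strand. The annotation places another gene over part of Il1r2 (Gm16894, Gm37347), Il1r1 (Gm38070), Il1rap (Gm20319), Il1a (Gm14023), Il1b (Il1bos) and Il18 (Bco2, Tex12), and counts of these 6 genes may hold reads of a neighbour. No gene overlaps Il1rl1, Il33 or Il1rn.

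Of the 9 genes, Il1rl1 had called differences in the most classes, and Il1a and Il1rn stood together in their profile over classes, so the 250 bases before their start sites are shown. All 9 genes matched the RefSeq promoter table (GRCm38.p6), with 14 entries. Il1rl1 has a pair of annotated start sites, and the counts do not tell the transcripts from either site, nor the soluble from the membrane form of ST2, apart. Capitals mark a match, on either strand, to the GATA motif AGATAA or the AP-1 motif TGANTCA. The first Il1rl1 window is chr1:40429320-40429569 (plus strand), the second chr1:40439379-40439628 (plus), the Il1a window chr2:129309973-129310222 (minus) and the first Il1rn window chr2:24336610-24336859 (plus).
Il1rl1, first start: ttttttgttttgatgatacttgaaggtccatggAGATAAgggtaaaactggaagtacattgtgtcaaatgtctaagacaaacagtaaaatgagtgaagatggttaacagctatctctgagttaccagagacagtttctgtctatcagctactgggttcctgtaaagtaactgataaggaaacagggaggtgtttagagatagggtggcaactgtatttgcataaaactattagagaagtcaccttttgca
Il1rl1, second start: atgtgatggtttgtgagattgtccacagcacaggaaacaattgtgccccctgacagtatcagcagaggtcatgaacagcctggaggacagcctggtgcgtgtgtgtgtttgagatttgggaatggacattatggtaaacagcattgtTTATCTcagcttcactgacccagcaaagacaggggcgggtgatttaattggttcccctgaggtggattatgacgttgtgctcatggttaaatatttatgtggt
Il1a: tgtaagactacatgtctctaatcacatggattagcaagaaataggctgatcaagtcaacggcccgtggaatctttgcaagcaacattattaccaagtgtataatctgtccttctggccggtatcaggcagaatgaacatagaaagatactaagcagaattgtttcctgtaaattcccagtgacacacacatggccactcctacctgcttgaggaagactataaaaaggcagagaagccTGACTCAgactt
Il1rn, first start: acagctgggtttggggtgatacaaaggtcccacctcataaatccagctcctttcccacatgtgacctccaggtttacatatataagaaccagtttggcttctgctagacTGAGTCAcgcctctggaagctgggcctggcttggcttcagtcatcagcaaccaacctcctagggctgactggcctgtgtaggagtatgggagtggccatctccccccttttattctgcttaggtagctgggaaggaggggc
Counted back from the start site, the GATA match begins at -217 in the first Il1rl1 window and at -103, on the opposite strand, in the second. The AP-1 match begins at -12 in Il1a and at -141 in the first Il1rn window. The other Il1rn windows, chr2:24345041-24345290 and chr2:24345121-24345370, are not shown and hold no AP-1 match. Of 32536 promoters of this length in the table, 9.97% held AGATAA and 6.73% held TGANTCA. The NF-κB motif GGANTTTCC occurred in 1.07% of all promoters and in none of these 14 windows. A match is a run of letters only.

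Each gene had a class in which it was highest, by the mean of its levels in those libraries that held at least 50 cells of the class. Il1b, Il1r2, Il1rap and Il1rn were highest in neutrophils, Il1a and Il18 in alveolar macrophages, Il1r1 in fibroblasts, Il33 in alveolar type 2 cells and Il1rl1 in tumour-gated cells.

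**Figure D1:**
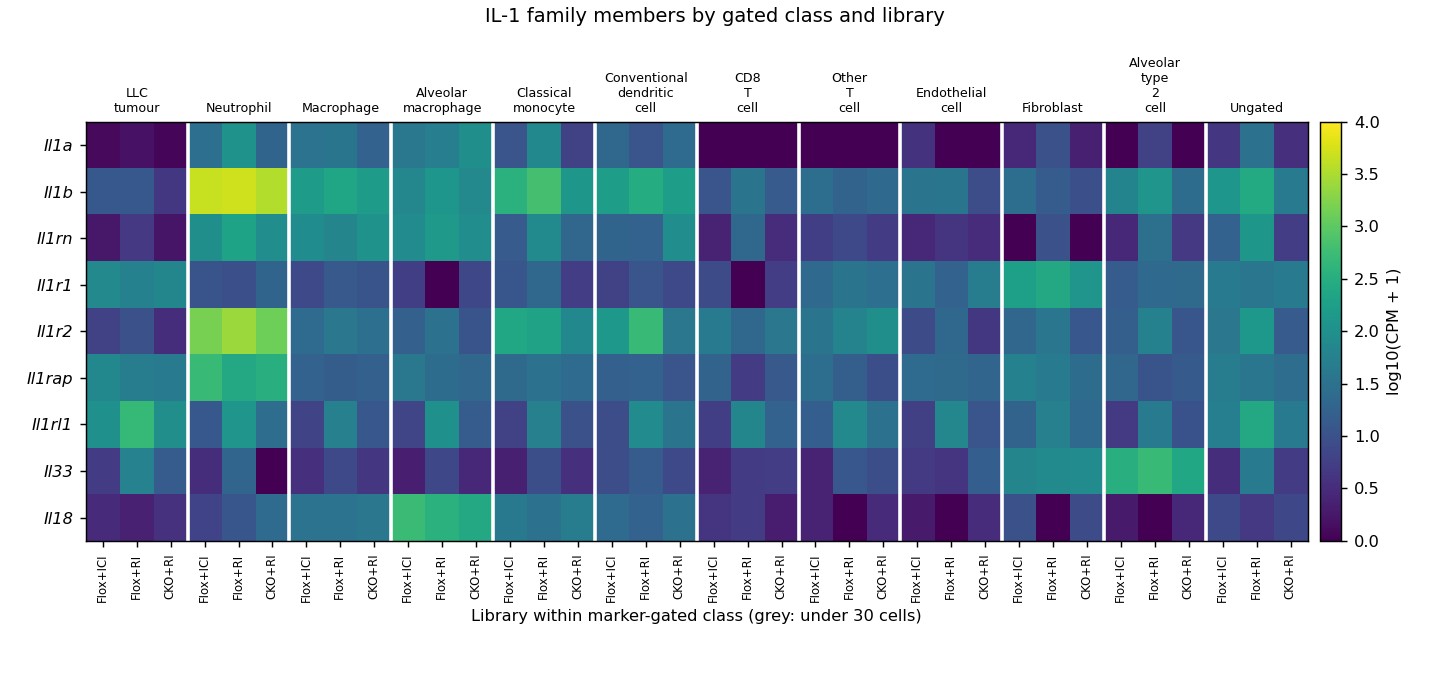
Level of each of the 9 genes (CPM, colour on a log scale) by cell class and library. Il1rl1 is highest in tumour-gated cells, with the Flox+RI column above the other 2, and Il1b and Il1r2 are highest in neutrophils of every library.

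Il1rl1, the IL-33 receptor gene, was mainly a transcript of the tumour cells. Tumour-gated cells held 89.1% of the Il1rl1 UMIs of Flox+ICI, 89.3% of those of Flox+RI and 92.6% of those of the CKO+RI-labelled library. The level in these cells was 99.7 CPM [96.8 to 103] in Flox+ICI, 471 CPM [466 to 476] in Flox+RI and 93.5 CPM [91.8 to 95.3] for the CKO+RI-labelled library, from 4255, 30219 and 10780 UMIs. Flox+RI was the high library, and the intervals of the other pair did not overlap it. The ratio of Flox+RI to Flox+ICI was 4.72 [4.57 to 4.88], and the CKO+RI-labelled library was 5.04-fold lower than Flox+RI [4.93 to 5.15].

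The spread of Il1rl1 over single tumour cells differed as well. A UMI was found in 38.1% of tumour-gated cells of Flox+ICI, 82.5% of those of Flox+RI and 42.3% of those of the CKO+RI-labelled library, at median depths of 14592, 16038.5 and 25830 UMIs. Alveolar type 2 cells, an epithelial class not known for ST2, gave 1.18%, 15.6% and 3.88% at median depths of 2833.5, 3065.5 and 4007 UMIs. With every cell cut down at random to 1000 UMIs, the tumour-gated shares were 8.13% of 2806 cells, 31.1% of 3672 and 6.46% of 4177, and those of alveolar type 2 cells 0%, 3.23% and 3.54% of 287, 62 and 113 cells. In Flox+ICI and the CKO+RI-labelled library few cells carried most of the transcript: the tenth of tumour-gated cells with the highest level held 71.8% and 79.0% of the Il1rl1 UMIs, against 39.1% in Flox+RI. The highest count in 1 cell was 239, 83 and 197 UMIs, in the order Flox+ICI, Flox+RI, CKO+RI-labelled library.

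Tumour-gated cells of the 3 libraries sat in different clusters, and cluster 1 held 58.8% of those of Flox+RI, cluster 5 held 37.4% of those of the CKO+RI-labelled library and cluster 2 held 37.5% of those of Flox+ICI. Cluster 5 was led by the stromal genes Lum and Dcn beside Sema3a and Ereg of the tumour list. Within cluster 2, Il1rl1 was at 153 CPM in Flox+ICI, 545 in Flox+RI and 66.2 for the CKO+RI-labelled library. Within cluster 9, which is led by Hmga2 and a histone gene, it was at 35.7, 319.6 and 30.5 CPM. Flox+RI was also the highest in clusters 1, 5 and 8, where it stood at 466, 410.4 and 217 CPM. In cluster 5 the CKO+RI-labelled library reached 161 CPM, above the 99.2 CPM of Flox+ICI. The order of Flox+RI over both other libraries was therefore the same in each of the 5 clusters.

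**Figure D2:**
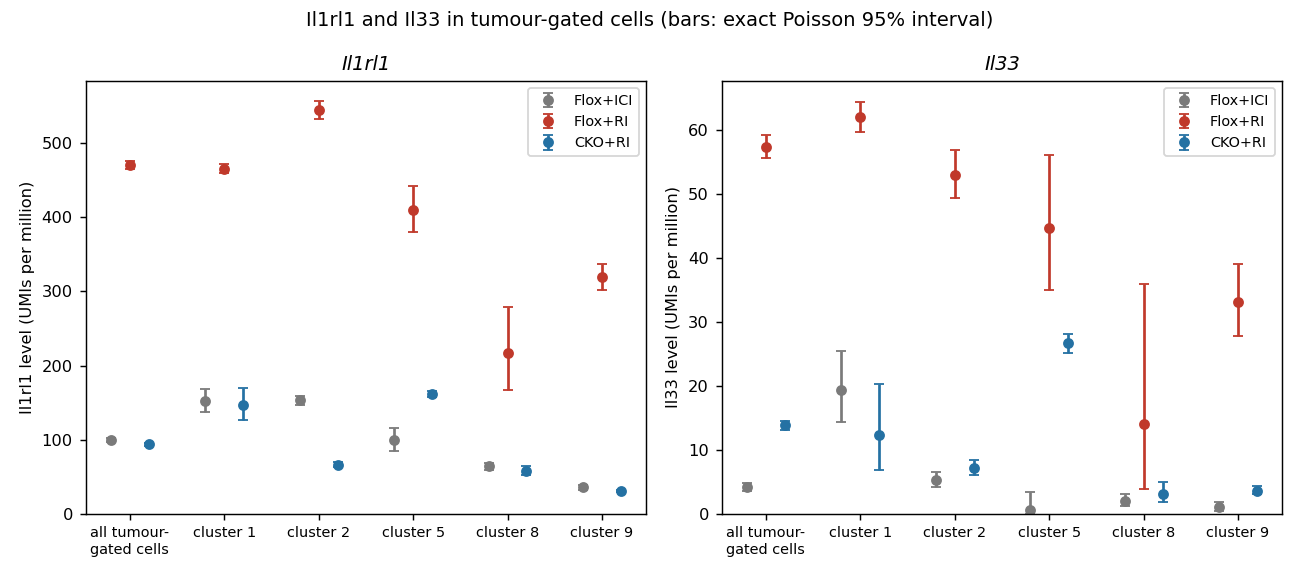
Il1rl1 (left) and Il33 (right) in all tumour-gated cells and in 5 tumour clusters, in CPM with exact Poisson 95% intervals, by library. Flox+RI is highest in every column for both genes, and its Il33 value in cluster 8 rests on 4 UMIs.

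Il1rl1 was also found at low level in the host classes. Neutrophils held 11.7 CPM in Flox+ICI, 123 in Flox+RI and 26.2 for the CKO+RI-labelled library. Endothelial cells held 4.74, 70.6 and 10.2 CPM, and macrophages 5.70, 55.0 and 11.3 CPM. In all 3 classes Flox+RI was the high library. The level in 9 host classes, given as a percentage of that in tumour-gated cells of the same library, had a median of 5.72% in Flox+ICI (3.87 to 14.8%), 14.996% in Flox+RI (8.86 to 26.1%) and 12.1% for the CKO+RI-labelled library (8.90 to 32.1%). Krt8, a keratin of the tumour cells that was not used in the tumour gate, had medians of 11.1%, 14.6% and 16.6% over the same classes. Hmga2 and Sema3a, which set the tumour gate and so are kept low in host classes by it, had medians of 3.58%, 6.68% and 6.44% and of 2.15%, 3.47% and 4.05%. In neutrophils of Flox+RI the percentages were 26.1% for Il1rl1 and 27.9% for Krt8, and in endothelial cells 14.996% and 8.00%. The part of free tumour RNA in the host levels was not tested, and the host values are given as levels only.

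**Figure D3:**
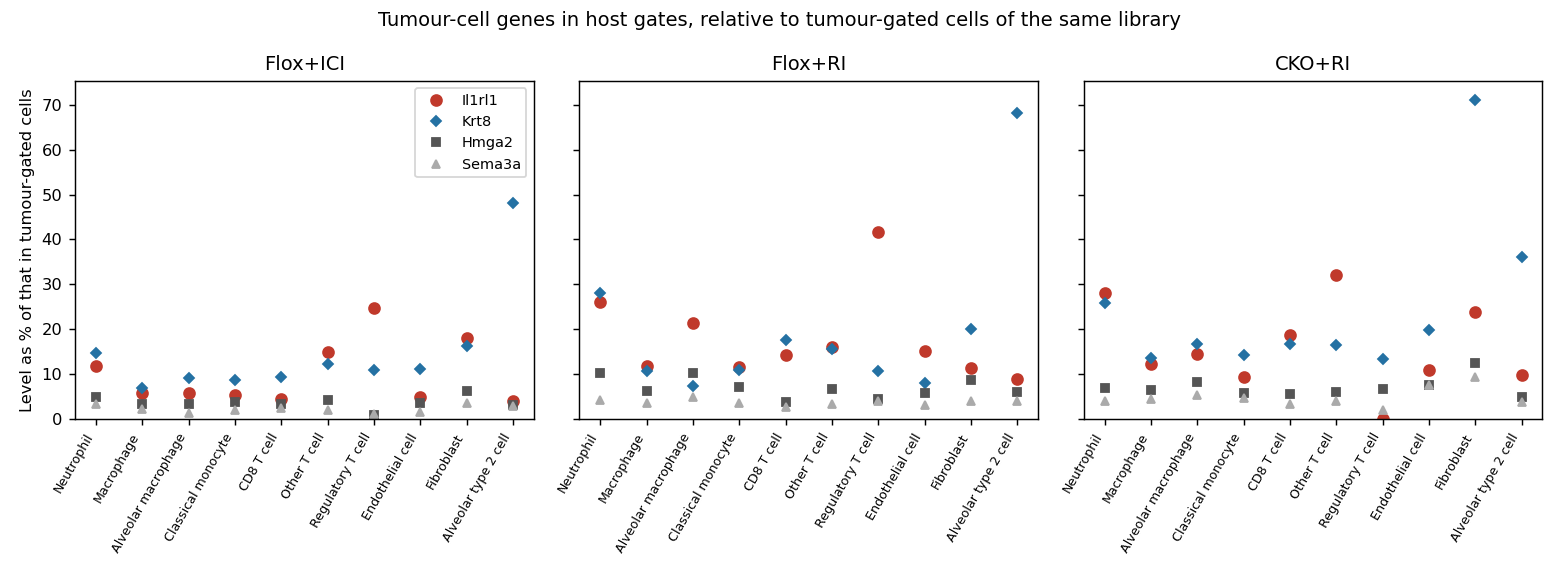
Level of Il1rl1, Krt8, Hmga2 and Sema3a in 10 host classes as a percentage of the level in tumour-gated cells, 1 panel per library. Regulatory T cells of Flox+RI stand at 41.6% for Il1rl1 and at 10.6% for Krt8, and alveolar type 2 cells express Krt8 themselves.

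Regulatory T cells, the lymphoid class known for ST2, were few. The 39 regulatory T cells of Flox+RI held 23 Il1rl1 UMIs in 17 cells, a level of 196 CPM, and the 461 other T cells of that library held 56 UMIs at 72.1 CPM. The ratio was 2.72 [1.60 to 4.49], while the tumour gene Hmga2 had a ratio of 0.799 [0.308 to 1.75] between the same cells. Of the 25 regulatory T cells of Flox+ICI 1 carried Il1rl1, with 2 UMIs, and the 15 of the CKO+RI-labelled library held none. Mast cells or basophils came to 1 cell per library, so their Il1rl1 could not be described.

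Il33, the ligand of ST2, had separate sources in lung epithelium and tumour. Alveolar type 2 cells held 319 CPM [286 to 356] in Flox+ICI, 508 CPM [441 to 582] in Flox+RI and 250.5 CPM [211 to 296] for the CKO+RI-labelled library. Flox+RI was the highest, 1.59 times Flox+ICI [1.33 to 1.90], which is under the 2-fold limit, and the CKO+RI-labelled library was 2.03-fold lower than Flox+RI [1.63 to 2.53]. In cluster 18 alone, the alveolar type 2 cluster led by the surfactant genes Sftpc and Sftpa1, the levels were 338, 548 and 262 CPM. The call of the CKO+RI-labelled library against Flox+RI was lost when doublets were kept and when cells were weighted equally.

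In tumour-gated cells Il33 was at 4.17 CPM [3.58 to 4.83] in Flox+ICI, 57.5 CPM [55.6 to 59.4] in Flox+RI and 13.8 CPM [13.2 to 14.5] for the CKO+RI-labelled library, from 178, 3687 and 1594 UMIs. The 3 intervals lay apart, with Flox+RI 13.8 times Flox+ICI [11.8 to 16.1] and the CKO+RI-labelled library 4.16-fold lower than Flox+RI [3.92 to 4.41]. Tumour-gated cells held 28.1% of the Il33 UMIs of Flox+ICI, where alveolar type 2 cells held 52.3%. In Flox+RI and the CKO+RI-labelled library the tumour-gated cells held 82.2% and 82.3%. Over all kept cells Il33 was at 9.63, 51.8 and 13.5 CPM in Flox+ICI, Flox+RI and the CKO+RI-labelled library. The tumour-gated level was only a little above this in Flox+RI and the CKO+RI-labelled library. Their tumour-gated shares of Il33 thus lay near the tumour-gated share of the UMIs of all genes. Within cluster 2 Il33 was at 5.29, 53.1 and 7.19 CPM, and within cluster 9 at 1.01, 33.1 and 3.62 CPM. In cluster 5 the CKO+RI-labelled library reached 26.7 CPM against 44.7 in Flox+RI, a ratio of 0.597 [0.472 to 0.767] that was not called.

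Cells with more Il1rl1 also carried Il33 more often. Tumour-gated cells were thinned to 10000 UMIs each, which kept 2164, 3045 and 3730 cells. In Flox+RI, Il33 was found in 7.05% of cells with no Il1rl1 UMI, 18.4% of those with 1 to 4 and 45.1% of those with 5 or more. The same shares were 0.957%, 3.38% and 7.27% in Flox+ICI and 1.84%, 5.53% and 30.7% in the CKO+RI-labelled library. At each of these Il1rl1 counts Flox+RI stood highest. Cells with 5 or more Il1rl1 UMIs made up 5.08%, 38.5% and 4.37% of the thinned cells of Flox+ICI, Flox+RI and the CKO+RI-labelled library.

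**Figure D4:**
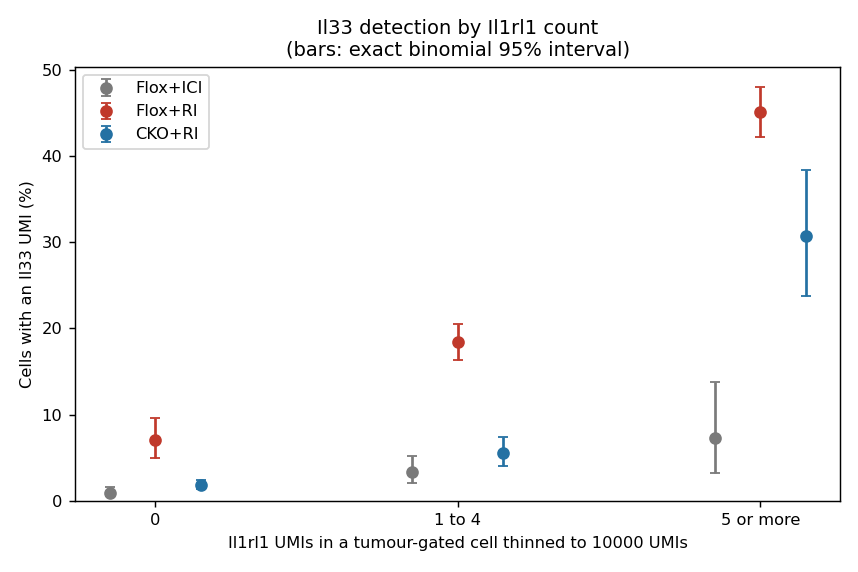
Share of tumour-gated cells with an Il33 UMI by the number of Il1rl1 UMIs in the same cell, after thinning to 10000 UMIs, with exact binomial 95% intervals. The share is higher at higher Il1rl1 counts in all 3 libraries and reaches 45.1% in Flox+RI.

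In fibroblasts, another barrier-tissue source, Il33 was at 64.6, 80.4 and 83.8 CPM. Their intervals overlapped, and with 30 fibroblasts in Flox+RI the class was not compared.

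Il1b was a neutrophil transcript and differed little between libraries there. Neutrophils held 4629 CPM [4527 to 4732] in Flox+ICI, 5203 CPM in Flox+RI and 3456 CPM for the CKO+RI-labelled library. The ratio of Flox+RI to Flox+ICI was 1.12, and the CKO+RI-labelled library was 1.51-fold lower than Flox+RI, both under the 2-fold limit. Neutrophil-gated cells held 65.9%, 39.4% and 63.3% of the Il1b UMIs of the 3 libraries. In Flox+RI 27.8% of them lay in cells that passed no gate. Over all kept cells Il1b was at 182, 128 and 39.2 CPM, and the libraries held 1450, 1092 and 547 neutrophils.

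Il1b differed more in classical monocytes. Classical monocytes held 359 CPM [335 to 384] in Flox+ICI, 662 CPM [617 to 709] in Flox+RI and 129 CPM [109 to 152] for the CKO+RI-labelled library, which was 5.13-fold below Flox+RI [4.30 to 6.16]. These monocytes sat in different clusters, since 74.8% of those of Flox+RI fell in cluster 3, led by Arg1 and Gpnmb, and 89.8% and 90.4% of those of the other libraries in cluster 6, led by Plac8 and Chil3. Within cluster 6 alone the levels were 318, 447 and 86.0 CPM, and the CKO+RI-labelled library was 5.19-fold lower than Flox+RI. Macrophages as a class held 160.4, 231 and 161 CPM, under the 2-fold limit in both comparisons. Within macrophage cluster 3 the CKO+RI-labelled library was 2.98-fold lower than Flox+RI (78.6 and 234 CPM, 61 and 916 cells), and within cluster 4, led by C1qa and Mrc1, 1.19-fold lower (181 and 215 CPM). Non-classical monocytes stood at 1582, 3039 and 162 CPM, but 33.3% of them in Flox+ICI and 48.4% in Flox+RI fell in the neutrophil cluster 0, so the class is given by cluster: in cluster 6 the levels were 492, 1094 and 93.7 CPM.

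Il1b in tumour-gated cells was low, at 11.9, 11.8 and 3.50 CPM, and alongside it stood the neutrophil genes. As a share of the neutrophil level, Il1b in tumour-gated cells was at 0.256%, 0.227% and 0.101%, and S100a8, an abundant neutrophil transcript, at 0.237%, 0.226% and 0.0924%. Il1a, Il1rn and Il1r2 were also low in these cells, at 0.281, 0.577 and 0.156 CPM, at 0.820, 3.62 and 0.685 CPM and at 4.85, 8.67 and 2.32 CPM. Neutrophils held Il1a at 27.6, 109 and 18.4 CPM, Il1rn at 97.9, 206 and 92.1 CPM and Il1r2 at 1489, 2476 and 1329 CPM. As a share of the neutrophil level, Il1a, Il1rn and Il1r2 in tumour-gated cells thus stood above S100a8 in every library. They stood above it by more than Il1b did. The part of free neutrophil RNA in these values was not tested.

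Il1a differed more than Il1b in the same cells. Neutrophils held 27.6 CPM [20.2 to 36.6] in Flox+ICI, 109 CPM [87.4 to 133] in Flox+RI and 18.4 CPM [11.1 to 28.8] for the CKO+RI-labelled library, from 47, 91 and 19 UMIs. The interval of Flox+RI lay above both others, with ratios of 3.94 [2.74 to 5.73] to Flox+ICI and a 5.89-fold lower level [3.57 to 10.2] in the CKO+RI-labelled library. Neutrophils of Flox+RI were split between cluster 0 (48.0%) and cluster 13 (49.5%), and those of the other libraries lay almost wholly in cluster 0 (95.7% and 97.6%). In cluster 0 alone Il1a was at 18.2, 63.7 and 16.7 CPM, and both differences were still called. Cluster 13, led by Tnf and Ccl3, went the other way: Il1a was at 141 CPM in 540 neutrophils of Flox+RI and at 404 CPM in 56 of Flox+ICI, a ratio of 0.350 [0.200 to 0.643] from 55 and 17 UMIs.

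Classical monocytes held Il1a at 10.3, 72.1 and 5.23 CPM (24, 87 and 6 UMIs), again with Flox+RI high. Flox+RI was 7.01 times Flox+ICI [4.42 to 11.5], and the CKO+RI-labelled library 13.8-fold below Flox+RI [6.08 to 38.6]. Between the Flox libraries, the ratio was 3.02 [1.24 to 9.55] within cluster 3 alone, with 56 cells of Flox+ICI. Macrophages held 31.9, 34.8 and 16.9 CPM. Their 2.06-fold lower value in the CKO+RI-labelled library did not hold within a cluster, where the ratios were 0.699 [0.399 to 1.15] in cluster 3 and 1.14 [0.649 to 2.08] in cluster 4, and 78.6% of the macrophages of that library but 23.7% of those of Flox+RI fell in cluster 4. Alveolar macrophages, the resident phagocytes of the air spaces, went the other way in their values, at 39.1, 50.3 and 95.9 CPM, but the ratio of 1.91 [0.934 to 4.53] was not called. The CD8, CD4, regulatory and other T cells held no Il1a UMI.

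Il1rn, the antagonist gene, was highest in Flox+RI in neutrophils and classical monocytes and lowest there in macrophages. Neutrophils held 97.9 CPM [83.6 to 114] in Flox+ICI, 206 CPM [177 to 239] in Flox+RI and 92.1 CPM [74.5 to 113] for the CKO+RI-labelled library. Flox+RI was 2.11 times Flox+ICI [1.69 to 2.62], and the CKO+RI-labelled library 2.24-fold lower than Flox+RI [1.73 to 2.91]. In cluster 0 alone the levels were 86.0, 127 and 85.7 CPM and neither difference was called, and when libraries were scaled by the median ratio of all genes both calls were lost as well. Classical monocytes held 13.3, 81.2 and 20.05 CPM, with Flox+RI 6.11 times Flox+ICI [4.04 to 9.47] and the CKO+RI-labelled library 4.05-fold lower than Flox+RI [2.55 to 6.68]. Within cluster 3, which held most of the Flox+RI monocytes, the ratio of Flox+RI to Flox+ICI was 1.74 [0.875 to 3.93] and was not called.

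In macrophages Il1rn was at 87.4 CPM in Flox+ICI, 64.6 CPM in Flox+RI and 111 CPM for the CKO+RI-labelled library, so here Flox+RI was the low library. The ratio of 1.72 [1.49 to 1.98] between the last pair was not called. By cluster it was 2.44 [1.89 to 3.12] in cluster 3, past the limit, and 1.99 [1.55 to 2.57] in cluster 4. Alveolar macrophages held 85.0, 145 and 90.5 CPM, with overlapping intervals between Flox+RI and the CKO+RI-labelled library. In Flox+RI 59.5% of all Il1rn UMIs lay in cells that passed no gate, mostly in cluster 14.

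**Figure D5:**
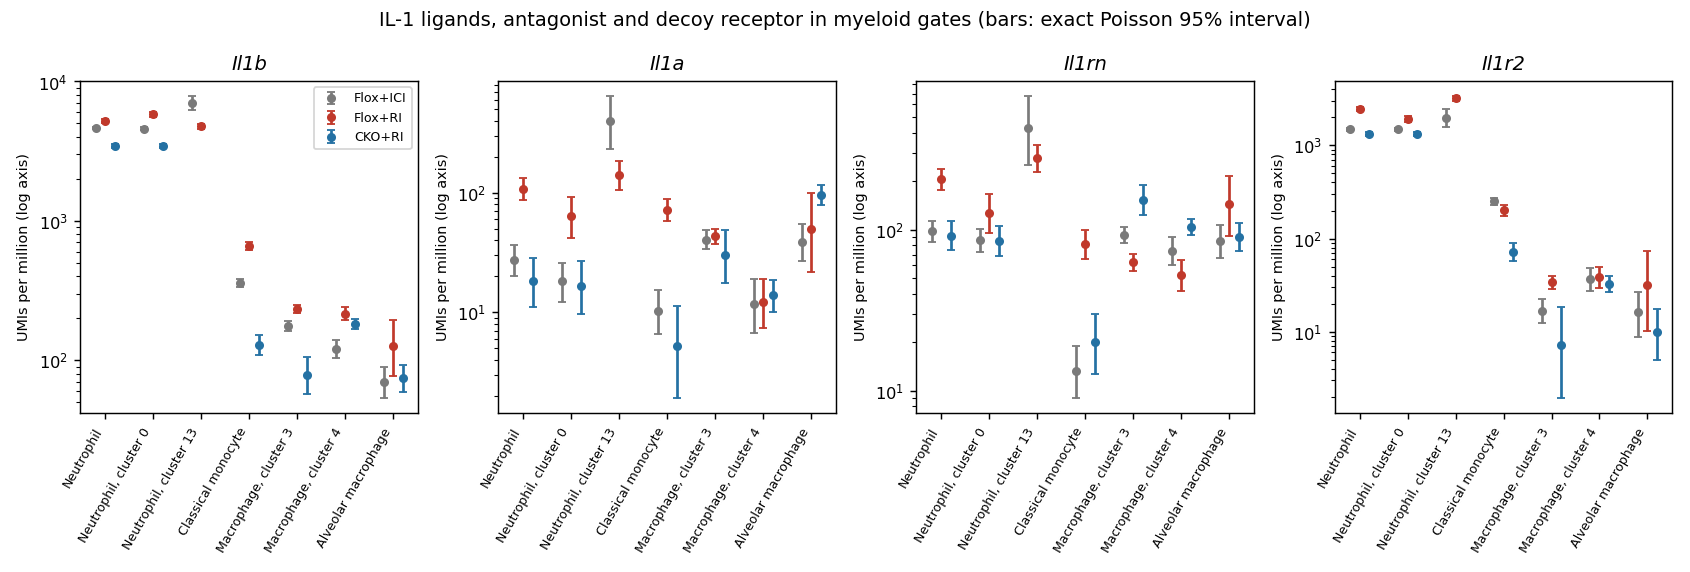
Il1b, Il1a, Il1rn and Il1r2 in neutrophils (whole gate and clusters 0 and 13), classical monocytes, macrophages of clusters 3 and 4, and alveolar macrophages, in CPM on a log axis with exact Poisson 95% intervals, by library. Flox+RI is highest for Il1a in neutrophils (109 CPM) and classical monocytes (72.1 CPM), and lowest for Il1rn in macrophages of clusters 3 (63.0 CPM) and 4 (52.5 CPM).

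Among the receptors, the decoy Il1r2 was a neutrophil transcript. Neutrophils held 1489 CPM [1431 to 1548] in Flox+ICI, 2476 CPM in Flox+RI and 1329 CPM for the CKO+RI-labelled library, with Flox+RI high but under the 2-fold limit in both comparisons. Classical monocytes held 252, 201 and 72.3 CPM, and there the CKO+RI-labelled library was 2.78-fold below Flox+RI [2.16 to 3.61], and 4.53-fold below it in cluster 6. Conventional dendritic cells, which present antigen to T cells, held 137 CPM in 82 cells of Flox+ICI and 497 CPM in 69 cells of Flox+RI, a ratio of 3.64 [2.64 to 5.10]. The clusters behind this class differed, as 33.3% of these cells in Flox+RI and 14.6% in Flox+ICI fell in cluster 3. In the 39 dendritic cells of the CKO+RI-labelled library Il1r2 was at 37.2 CPM, and this class was too small to compare. In alveolar type 2 cells Il1r2 was at 15.4, 56.4 and 10.8 CPM, and 12.2% and 16.7% of the Flox+RI cells of this gate lay in clusters 13 and 14. In cluster 18 alone the first pair stood at 15.3 and 13.2 CPM.

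Il1r1, the signalling receptor, was highest per class in fibroblasts and most abundant in total in tumour cells. Fibroblasts held 179.6 CPM in Flox+ICI, 255 CPM in Flox+RI and 122 CPM for the CKO+RI-labelled library, from 100, 57 and 99 UMIs. Tumour-gated cells held 74.8, 56.6 and 67.5 CPM, or 84.1% to 88.4% of all Il1r1 UMIs of a library, and neither comparison passed 2-fold. They also held most UMIs of all genes, at 42663992 of 65737509, 64149594 of 86628187 and 115268890 of 143637387. Their share of Il1r1 is therefore not one of level alone. The class gated as γδ T or innate lymphoid cells, with 26, 31 and 12 cells, stood at 234 CPM [107 to 443], 211 CPM [120 to 342] and 168 CPM [61.8 to 367]. CD8 T cells held 7.37, 0 and 4.34 CPM. The interval of this small class overlapped that of fibroblasts in each library.

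In endothelial cells, which respond to IL-1 by displaying leukocyte adhesion molecules, Il1r1 was at 34.1, 16.9 and 46.5 CPM, from 36, 11 and 41 UMIs. Flox+RI was the low library: the ratio to Flox+ICI was 0.496 [0.228 to 0.995], and the CKO+RI-labelled library was 2.75 times Flox+RI [1.39 to 5.94]. Classical monocytes had the opposite order, at 10.7, 21.5 and 4.36 CPM from 25, 26 and 5 UMIs. These levels rest on few UMIs. Between the Flox libraries, the endothelial call was lost in 4 of 12 alternatives. The monocyte ratio of 2.01 lost its call in 6 of 11, and with cells in a same-named cluster it turned to 0.803.

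Il1rap, the shared signalling chain, was found in neutrophils at 514 CPM [481 to 549] in Flox+ICI, 255 CPM [222 to 292] in Flox+RI and 337 CPM [303 to 375] for the CKO+RI-labelled library. Flox+RI was 2.02-fold below Flox+ICI [1.73 to 2.35]. In cluster 0 alone the levels were 521, 335 and 331 CPM, and the ratio of 0.643 between the Flox libraries was not called. Tumour-gated cells held 73.3, 48.4 and 45.8 CPM, under the limit in both comparisons. For this partner chain of ST2 the ratios in tumour-gated cells were 0.660 (Flox+RI to Flox+ICI) and 0.946 (CKO+RI-labelled library to Flox+RI).

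Il18 was at its highest level in alveolar macrophages. They held 541 CPM [493 to 592] in Flox+ICI, 352 CPM [266 to 457] in Flox+RI and 257 CPM [228 to 289] for the CKO+RI-labelled library, with ratios of 0.651 and 0.731 that stayed under the limit. Alveolar macrophages held 53.2% of the Il18 UMIs of Flox+ICI, 12.96% of those of Flox+RI and 29.6% of those of the CKO+RI-labelled library. Macrophages held more of them in Flox+RI (44.4%), and tumour-gated cells, at the low level given next, held 32.5% for the CKO+RI-labelled library. Macrophages held Il18 at 32.4, 32.3 and 38.2 CPM and classical monocytes 41.1, 29.8 and 47.1 CPM. Il18 was called higher in the CKO+RI-labelled library in tumour-gated cells (1.34 and 2.73 CPM, 2.04-fold) and in neutrophils (10.7 and 24.2 CPM, 9 and 25 UMIs, 2.26-fold [1.02 to 5.50]), at levels far below those of alveolar macrophages. The tumour call was lost when cells were weighted equally and without tumour clusters 1 and 5, and the neutrophil call under a stricter gate, with cells of at least 1000 UMIs and with cells in a same-named cluster.

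The calls were also counted over classes. In tumour-gated cells of the CKO+RI-labelled library against Flox+RI, 6 of the 9 were lower and 1 higher, where 8.87% and 4.42% of all genes were. Of the 6, Il1a, Il1b, Il1rn and Il1r2 were the myeloid genes at the low tumour levels given above, and the others were Il1rl1 and Il33. The part of free neutrophil RNA in the calls of these myeloid genes was not tested. Without tumour clusters 1 and 5 the calls of Il1a and of Il18, the higher gene, were lost. Classical monocytes had 6 of 8 measured genes lower and none higher (8.74% and 10.2% of all genes), neutrophils 3 of 8 lower and 1 higher (9.58% and 4.58%), and macrophages 3 of 9 lower and none higher (8.27% and 5.34%). Endothelial cells had 2 of 4 lower and 1 higher (3.94% and 10.9%). Alveolar type 2 cells had 4 of 5 lower and none higher (6.9% and 7.27%), namely Il1b, Il1r2, Il1rl1 and Il33. In Flox+RI 12.2% and 16.7% of this gate lay in clusters 13 and 14. The Il1b call was lost with cells of at least 1000 UMIs. That of Il33 was lost when doublets were kept and when cells were weighted equally. Il1r2 and Il1rl1 lost no call, but only 8 and 9 of 12 alternatives measured them, and the rest cannot say whether the calls hold. In the alveolar type 2 cluster alone, Il1r2 of Flox+RI stood far below its level in the whole gate, as given above. The part of clusters 13 and 14 in the Il1r2 call was not tested. In non-classical monocytes 3 of 3 were lower and none higher (8.46% and 9.3%). These were Il1b, Il1r2 and Il1rap, all highest in neutrophils. Of this gate in Flox+RI 48.4% and 13.7% fell in the neutrophil clusters 0 and 13. In the CKO+RI-labelled library 89.0% fell in cluster 6, so the count is not one of monocytes alone. These pairs are part of the total given below. Alveolar macrophages (1 of 6 lower, 4.08%, and none higher, 3.1%), CD8 T cells (1 of 3, 4.97%, and none, 6.22%) and other T cells (1 of 3, 4.02%, and none, 4.4%) had Il1rl1 alone. In all, 30 of 58 gene-class pairs were lower and 3 higher. In Flox+RI against Flox+ICI, 4 of the 9 genes were higher in tumour-gated cells and none lower, where 3.09% and 8.16% of all genes were. Neutrophils had 4 of 8 higher and 1 lower (12.4% and 3.61%), classical monocytes 4 of 8 higher and none lower (6.0% and 9.16%), and macrophages 2 of 9 higher and none lower (3.11% and 3.0%). Il33 was among the higher genes in neutrophils, from 16 UMIs in Flox+RI and 4 in Flox+ICI. It was also among those in macrophages, from 40 and 11 UMIs. The part of free tumour RNA in these Il33 values was not tested. Endothelial cells had 2 of 5 higher and 1 lower (4.9% and 11.6%). Alveolar type 2 cells had 2 of 6 higher (3.74%), dendritic cells 2 of 3 (2.32%), and non-classical monocytes 2 of 4 (3.73%), with none lower beside 6.88%, 4.33% and 5.48% of all genes. The alveolar type 2 and non-classical monocyte gates of Flox+RI hold the same mix of clusters here. The alveolar type 2 call of Il1r2 was lost in 4 of 12 alternatives and turned round in 3 of them. Alveolar macrophages (1 of 6 higher, 2.49%, none lower, 4.58%) and other T cells (1 of 5, 2.63%, none, 3.27%) had Il1rl1 alone, and CD8 T cells none of 1 (2.24% and 6.32%). In all, 24 of 64 pairs were higher and 2 lower. Both comparisons hold Flox+RI, so they are not independent. Pairs of 1 gene are not independent either, since Il1rl1 alone gave 9 of the called pairs in each comparison, 8 of them at the low host levels described above. The median log2 ratio of all genes was off 0 in some classes, at -0.17 in neutrophils and 0.16 in classical monocytes for the first comparison and at 0.29, -0.20 and, in tumour-gated cells, -0.24 for the second, and removing it turned no call round. Restricted to pairs with at least 0.5 times the level of all kept cells, 15 of 37 pairs were lower and 2 higher in the first comparison, and 10 of 38 higher and 2 lower in the second. This restriction used the library in which the pair stood higher, so a pair could pass through its high library alone. The share of all genes was not counted under it, so these counts describe only how many pairs remained.

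Genes that act around these cytokines were followed in 5 lists. Among target genes of IL-1 signalling, classical monocytes of the CKO+RI-labelled library had 7 of 9 measured genes lower than Flox+RI and none higher, with 8.74% of all genes lower. The neutrophil chemokine gene Cxcl2 was at 738, 2439 and 254 CPM in Flox+ICI, Flox+RI and the CKO+RI-labelled library, and Cxcl3, of the same family, at 2.57, 65.4 and 1.74 CPM. In neutrophils 4 of 8 were lower and none higher (9.58% of all genes lower), among them the adhesion gene Icam1 at 383, 609 and 89.1 CPM. In neutrophils of cluster 0 alone 4 of 8 were lower and 1 higher (4.86% and 4.0% of all genes). Macrophages were mixed, with 5 of 12 lower and 3 higher (8.27% and 5.34% of all genes). Their Il6, a cytokine gene, was at 5.25, 10.6 and 0.538 CPM (23, 63 and 2 UMIs), and Vcam1, an adhesion gene, at 126, 44.1 and 185 CPM. Tumour-gated cells had 3 of 14 lower and 3 higher (8.87% and 4.42% of all genes), with the chemokine gene Cxcl1 at 345, 126 and 374 CPM, so Flox+RI was the low library for it. The median log2 ratio of the list was -1.65 in classical monocytes, -0.84 in neutrophils, -0.59 in macrophages and -0.03 in tumour-gated cells, beside 0.16, -0.17, 0.08 and -0.02 over all genes. The classical monocytes sat in different clusters, as given for Il1b. Within cluster 6 alone (227 cells of the CKO+RI-labelled library and 52 of Flox+RI), 4 of 7 genes of the list were lower and none higher, where 4.09% of all genes were lower, and Cxcl2 had a ratio of 0.199 [0.157 to 0.253]. Cxcl3 had no UMI in these cluster 6 cells.

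In Flox+RI against Flox+ICI the same list had 5 of 9 higher and 1 lower in classical monocytes, where 6.0% of all genes were higher and 9.16% lower. Within cluster 3, to which 74.8% of the Flox+RI and 7.33% of the Flox+ICI monocytes belonged, 4 of 9 were higher and none lower, and within cluster 6 none of 8 was called. The acute-phase gene Saa3 was at 120.4, 2306 and 366 CPM in these cells and at 82.1, 1871 and 618 CPM in macrophages, where 4 of 12 were higher and 1 lower (3.11% and 3.0% of all genes). Saa3 is among the leading genes of cluster 3 and differed by cluster. In monocytes of cluster 3 it was at 78.6 CPM in Flox+ICI and 2605 CPM in Flox+RI, and in those of cluster 6 at 126.7, 178.75 and 13.5 CPM. In macrophages of cluster 3 it was at 78.4, 2513 and 127 CPM, but in those of cluster 4 at 91.0, 209 and 675 CPM, so there the CKO+RI-labelled library was 3.24 times Flox+RI [2.88 to 3.65]. Lcn2, an iron-binding defence gene, was the lower one in monocytes, at 492, 189 and 194 CPM. Neutrophils had 3 of 9 higher and 1 lower (12.4% and 3.61% of all genes), and tumour-gated cells 3 of 14 higher and 4 lower (3.09% and 8.16%).

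Of the inflammasome and cytokine-processing genes, Nlrp3, the sensor that activates caspase-1, was lower in the CKO+RI-labelled library in neutrophils (565, 686 and 296 CPM), macrophages (104, 171 and 62.4 CPM) and classical monocytes (187, 293 and 73.2 CPM). Over the list 4 of 11, 3 of 14 and 1 of 15 genes were lower in these classes, and 1, 1 and 2 higher. Of all genes 9.58%, 8.27% and 8.74% were lower and 4.58%, 5.34% and 10.2% higher, so the monocyte counts are near those shares. By cluster, neutrophils of cluster 0 had 1 of 9 lower and 2 higher, where 4.86% and 4.0% of all genes were. Macrophages had 6 of 14 lower in cluster 3 and 2 of 14 in cluster 4, with none higher (7.49% and 5.29% of all genes lower). Classical monocytes of cluster 6 had 3 of 14 lower and 2 higher (4.09% and 3.5%). Nlrp3 is a leading gene of cluster 13, which held 49.5% of Flox+RI neutrophils and 2.38% in the CKO+RI-labelled library. Casp1 itself was at 28.1, 14.3 and 42.6 CPM in neutrophils, with the CKO+RI-labelled library called higher. Of 16 genes of receptor signalling and its inhibitors measured in neutrophils, 6 were lower in that library and none higher (9.58% and 4.58% of all genes). These included the feedback inhibitors Nfkbia (2360.0, 3352 and 1214 CPM) and Tnfaip3 (227, 368 and 67.8 CPM). In neutrophils of cluster 0 alone 4 of 13 were lower and none higher (4.86% and 4.0% of all genes). In macrophages 1 of 17 was higher, Traf6, and none lower, near the 5.34% of all genes that were higher.

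Targets of IL-33 signalling were scarce: 1 or 2 of the 11 genes were measured in each of the 3 myeloid classes and 5 in tumour-gated cells. Arg1, an arginase gene, was at 21.4, 1239.8 and 205 CPM in classical monocytes and at 326, 1523 and 972 CPM in macrophages, with Flox+RI high in both. Arg1 leads cluster 3, which held most of the Flox+RI monocytes and few of the others. In monocytes of cluster 3 it was at 225 CPM in Flox+ICI and 1419 CPM in Flox+RI, and in those of cluster 6 at 2.89, 40.6 and 8.70 CPM from 6, 5 and 9 UMIs, too few to compare. In macrophages the CKO+RI-labelled library was not called lower within a cluster, at 1118 against 1746 CPM in cluster 3 and 963 against 992 CPM in cluster 4. Of the other IL-1 family genes, Il18bp was at 18.0, 62.1 and 18.3 CPM in classical monocytes, where Flox+RI was called higher than Flox+ICI and the CKO+RI-labelled library lower than Flox+RI. Within cluster 3 it was at 36.7 CPM in Flox+ICI and 69.6 CPM in Flox+RI, which was not called, and within cluster 6 at 14.5, 16.25 and 12.6 CPM from 30, 2 and 13 UMIs, with no call. In macrophages it was at 128, 120.5 and 59.2 CPM. There the direction differed by cluster, since the CKO+RI-labelled library was 2.60-fold lower than Flox+RI in cluster 3 (60.7 and 158 CPM) and 3.03 times Flox+RI in cluster 4 (60.1 and 19.8 CPM).

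The genes most like each of the 9 were found over 41 class-by-library profiles of 17 classes, as Pearson's r of log2(CPM + 10) over 14651 genes. Profiles of 1 library share its depth and free RNA, so r is a description. Il1b was most like Clec4e (r = 0.9498), Acod1 (0.932) and Slc7a11 (0.930), and Il1rn like Clec4d (0.901), Gla (0.886) and Slc7a11 (0.885). Il1a was closest to Arl11 (0.873), Clec4n (0.861) and Ftl1 (0.857), Il1r2 to Slfn1 (0.871), Cass4 (0.855) and Aqp9 (0.851), and Il1rap to Stfa2 (0.890), Mrgpra2b (0.867) and Mgam (0.863). For Il1rl1 the likeness was highest with Mgarp (0.887), a gene among the leaders of tumour cluster 1, followed by Cdc42ep5 (0.788) and Trpa1 (0.786). Il33 was nearest to Cth (0.893), Prcd (0.889) and Col12a1 (0.886), Il1r1 to Prickle1 (0.828), Nr2f2 (0.824) and Cald1 (0.819), and Il18 to the alveolar macrophage marker Marco (0.887), Slc7a2 (0.874) and Slc9a4 (0.864). Among the 9 genes themselves the closest pairs were Il1a with Il1rn (0.906) and Il1b with Il1r2 (0.847).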

How the data were processed

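Single-cell RNA was counted in 3 mouse tumour libraries, 1 per group. The authors deposited filtered matrices of UMI counts per gene and barcode; the matrix headers name Cell Ranger 6.1.2, while the submitters' processing notes name Cell Ranger 6.0 and Seurat 5.0.3 with mm10. No source used here says whether counting used strand. The deposited barcodes (10842, 13340 and 9300) held 75543561, 101840883 and 161250286 UMIs in Flox+ICI, Flox+RI and the CKO+RI-labelled library.

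Barcodes under 200 genes or above 20% mitochondrial UMIs were dropped (python 3.11.15, scanpy 1.11.5, numpy 2.4.6, scipy 1.17.1, pandas 2.3.3). Scrublet scores then removed 8.56%, 10.5% and 7.23% as doublets, at an assumed rate of 0.8% per 1000 barcodes. Each cell was assigned to 1 of 27 classes by marker genes. The tumour gate asked for at least 2 UMIs and 8 per 10000 of Hmga2, Sema3a, Ereg and Igf2bp2 together, with Xist and Ptprc each under 0.5 per 10000. Clusters came from 2000 variable genes without the 9 genes, 30 principal components, 15 neighbours and a Leiden resolution of 1.0, which gave 23 clusters.

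UMIs were summed per class and library and divided by the class total (CPM). Intervals are exact Poisson for a level, exact conditional binomial for a ratio and Clopper-Pearson for a share, all at 95%. Classes were compared where both libraries had at least 50 cells. On simulated counts with known changes, the ratio intervals held the true value in 95.3% to 96.1% of genes. These counts were drawn as independent Poisson counts, the model behind the intervals, so they check the calculation only. Transcripts concentrated in few cells, as Il1rl1 was in tumour-gated cells, were not simulated. Each of the 9 genes is described in selected classes, and some measured or called pairs are only counted. Among these, the CKO+RI-labelled library against Flox+RI had ratios of 0.225 for Il1b in endothelial cells and 0.480 for Il33 in macrophages. Flox+RI against Flox+ICI had ratios of 2.84 for Il1r2 in endothelial cells, 2.68 for Il33 in macrophages and 8.14 for Il33 in neutrophils. Per pathway list and class, at most 4 genes are named, 2 with the ratio bound farthest above 1 and 2 farthest below. For likeness, the 3 genes with the highest r are named. The 9 genes, the lists and the comparisons were chosen with earlier results of these data known. In all, 9 other settings were run (doublets, mitochondrial limit, clusters as classes, a stricter gate, equal weight per cell, scaling, depth, UMI minimum, fold limit), and 3 more were chosen after seeing the data.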

Additional observations from a re-analysis of the deposited data

Results flagged for a closer look

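Il1r1 differed in opposite directions in a pair of cell classes. In the CKO+RI-labelled library against Flox+RI the ratio was 0.202 in classical monocytes and 2.75 in endothelial cells. In Flox+RI against Flox+ICI it was 2.01 in classical monocytes and 0.496 in endothelial cells. The 2.01 lost its call in 6 of 11 alternatives and turned to 0.803 with cells in a same-named cluster, and the 0.496 lost its call in 4 of 12. The difference between the classes was not tested, since each group is 1 library, and both comparisons share Flox+RI. The monocyte values rest on 25, 26 and 5 UMIs and the endothelial values on 36, 11 and 41.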

How the results depend on the processing

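No paired analysis was possible because each group is 1 library, and for the same reason no library could be left out. The 33 called gene-class pairs of the CKO+RI-labelled library against Flox+RI became 17 when only pairs at 0.5 times the all-cell level or more were taken, and lay between 22 and 41 under the other settings. The 26 pairs of Flox+RI against Flox+ICI became 40 at a 1.5-fold limit, 15 with only gated cells in a cluster named for the same class, and 12 with only pairs at 0.5 times the all-cell level or more, and lay between 18 and 33 otherwise. The last 2 settings measure fewer pairs by construction; for the others the cause was not tested. In the first comparison no called pair changed direction under an alternative that measured it, and some alternatives did not measure every called pair. In the second, Il1r1 in classical monocytes turned to a ratio of 0.803 with cells in a same-named cluster. Il1r2 in alveolar type 2 cells turned to 0.743 with Leiden classes, 0.859 with cells of at least 1000 UMIs and 0.865 with cells in a same-named cluster. The class with the highest level was the same for 9 of 9 genes except under Leiden classes and same-named clusters, where it was 8 of 9 and Il1r1 had another class. The neutrophil calls of Il18 (CKO+RI-labelled library) and Il1rap (Flox libraries) were lost with cells of at least 1000 UMIs and in a same-named cluster, that of Il18 also under a stricter gate. Cell number limits regulatory T cells in all 3 libraries, fibroblasts in Flox+RI and dendritic cells in the CKO+RI-labelled library.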

Other observations

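In Flox+RI, 2223 cells of cluster 14 passed no marker gate. The cluster was led by Ccl3, Ccrl2, F10 and Clec4d and had a median of 833 UMIs per cell. These ungated cells held 1219 Il1rn UMIs, or 50.7% of the Il1rn UMIs of the library, at 629 CPM, above the 206 CPM of its neutrophils. They also held 24.9% of its Il1a UMIs, at 102.6 CPM, with Il1b at 491 CPM and Il1r2 at 254 CPM. The 550 ungated Flox+RI cells of cluster 13, led by Tnf and Ccl3, held Il1b at 3057 CPM, Il1r2 at 1700.1 CPM, Il1rn at 286 CPM and Il1a at 145 CPM. The 25 ungated cells of cluster 14 in Flox+ICI held Il1rn at 1882 CPM [1351 to 2554], from 41 UMIs, and the CKO+RI-labelled library had 1 such cell. A cluster almost wholly of 1 library cannot be told apart from that library.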
